A study of Mus musculus with 6 samples.

Results

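The genes described are the mitochondrial ribosomal protein genes, taken as every row of the expression tables whose symbol begins with Mrpl or Mrps followed by a number. This gave 78 genes of 26835, of which 49 carried large subunit symbols (Mrpl) and 29 carried small subunit symbols (Mrps). The 4 rows named as pseudogenes of these genes were left out. RNA had been sequenced from bone marrow-derived macrophages of wild-type BALB/c mice aged 5 to 8 weeks, grown from marrow for 6 days with M-CSF, a macrophage growth factor, at 25 ng/ml. The cells then received extracellular vesicles (10 µg) shed by the mouse osteosarcoma line K7M2 (K7M2-EV), or phosphate-buffered saline (PBS), each for 24 h. Each group held 3 libraries, described by the submitters as biological replicates from independent experiments. The comparison asked how these vesicles change macrophage gene expression. Values are FPKM, fragment counts scaled to transcript length and to the size of the library.

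Mitochondrial ribosomes translate the few proteins encoded by mitochondrial DNA, all of them subunits of the respiratory chain or of ATP synthase. Their RNA comes from the mitochondrial genome, whereas every ribosomal protein is encoded in the nucleus, made in the cytosol and imported. Some of these proteins descend from bacterial ribosomal proteins and others are found only in mitochondria. The small subunit binds and decodes the mRNA, and the large subunit joins amino acids and lets the new protein out through its exit tunnel.

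The spacing of low FPKM values implied 21435214 to 25604935 reads per library. Between 27 and 1078 reads then lay behind a member's value in any library, and counting error was at most 19.2%. Macrophage markers were all detected (10 of 10 listed), summing to 4130 to 5010 FPKM in the PBS libraries and 12500 to 14000 FPKM in the vesicle libraries. Mesenchymal markers summed to 213 to 511 and 274 to 743 FPKM, with replicate 2 highest in both groups. Of these 10, none was called higher and 1 lower (Runx2, 1.51 to 0.721 FPKM), 6 were not called and 3 were too low to be tested. Lymphocyte markers (2 of 6 measured) and dendritic markers (4 of 4) summed to at most 0.294 FPKM in every library. Neutrophil markers (9 of 10) summed to 9.97 to 15.4 and 60.4 to 64.5 FPKM. Of these, 3 were called higher, none lower and 1 not called, and 5 were too low to be tested. S100a8 went from 3.07 to 39.5 FPKM, Csf3r from 7.11 to 20.3 FPKM and Camp from 0.2 to 2.22 FPKM, while Ly6g and Mpo stood at no more than 0.107 FPKM. S100a9 went from 0.783 to 0.517 FPKM and was not called. Ngp (0.453 to 0.329 FPKM), Ltf (0.0496 to 0.0249 FPKM) and Cxcr2 (0.116 to 0 FPKM), all too low to be tested, had lower means with vesicles. All 6 proliferation markers fell, their sum going from 173 to 215 FPKM with PBS to 38.5 to 50.4 FPKM in the vesicle libraries. Of the macrophage markers 7 rose and 2 fell, and Lyz2 made up most of their sum (3750 to 10900 FPKM). Those that fell were Cd68 (411 to 202 FPKM) and Mrc1 (43.7 to 3.59 FPKM). The part of these shifts in the results below was not tested. In bulk RNA, fewer cells of a type and less RNA per cell cannot be told apart.

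Most mitochondrial ribosomal protein genes moved little with vesicles, while a few large subunit genes rose strongly. Of the 77 members that passed the filter on low values, 17 rose, 9 fell and 51 were not called (limma on log2(FPKM + 1), Benjamini-Hochberg adjusted p under 0.05 over 13009 genes). The called share was 33.8% of the members tested, set against 54% of all genes. The share called higher was 22.1%, set against 18.4% of all genes, and the share called lower was 11.7%, set against 35.6%. The median log2 fold change, vesicles minus PBS, was -0.005 over these members and -0.115 over all genes tested. Fold changes given here are differences of log2(FPKM + 1), and the added 1 makes those of low genes look smaller than they are. For 62 of the 77 the change was within 0.25 in either direction, set against 5885 of the 13009 genes. Of the members tested, 62 lay above the median of all genes. Only 2 of the 77, Mrpl52 and Mrpl45, were called with a change of at least 1, set against 1493 of the 13009 genes. Groups did not overlap for 21 of the 77 in the higher direction, set against 2837 of the 13009 genes (21.8%). In the lower direction this held for 16 of the 77, set against 5465 of the 13009 genes (42%).

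The split between rises and falls moved with the scaling. With median-of-ratios scaling, 29 members were called higher and 3 lower, their median becoming 0.13 and that of all genes -0.002. The shares of all genes were then 26.5% higher and 26% lower. When replicate number entered the fit as a block, 14 of the 77 members tested were called higher and 8 lower. Of the 13009 genes, 2495 (19.2%) were then higher and 4787 (36.8%) lower.

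**Figure D1:**
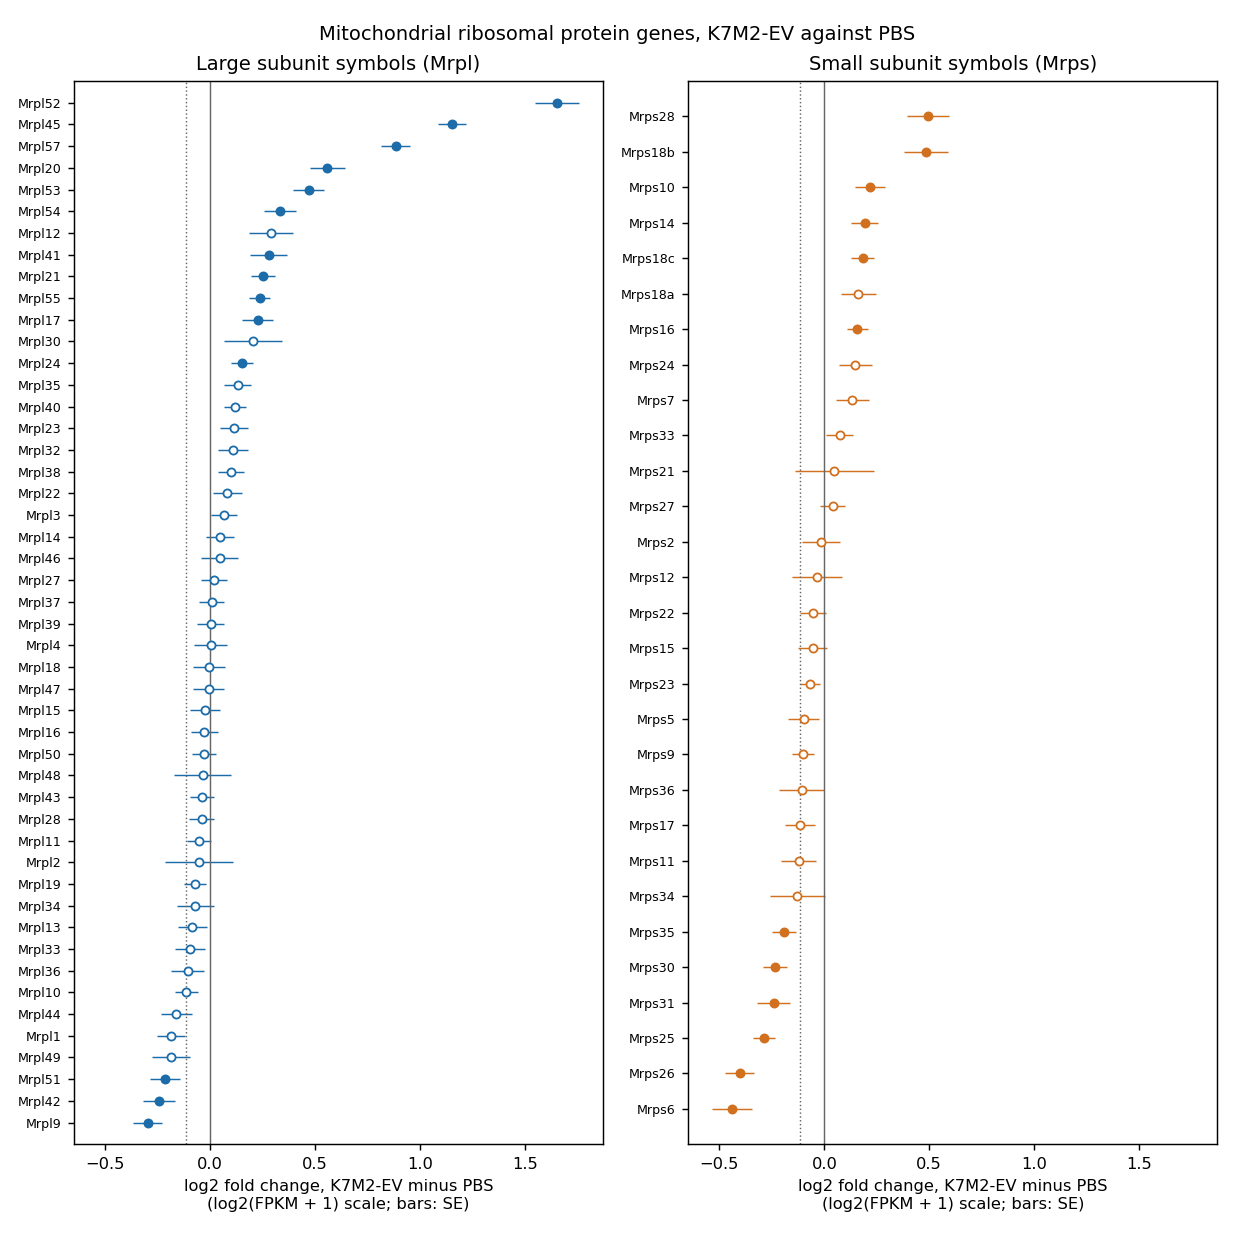
Log2 fold change (x axis, K7M2-EV minus PBS, log2(FPKM + 1) scale) of the 77 members tested, large subunit symbols on the left and small subunit symbols on the right. Bars are standard errors, filled points passed adjusted p under 0.05, the solid line is 0 and the dotted line is the median of all genes tested (-0.115). Most points lie near these lines, and Mrpl52, Mrpl45 and Mrpl57 stand to the right.

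Large subunit symbols (48 tested) gave 11 rises and 3 falls, with a median of 0.005 and a mean of 0.11. Small subunit symbols (29 tested) gave 6 rises and 6 falls, with a median of -0.055 and a mean of -0.013. As shares, 22.9% rose and 6.25% fell in the large subunit, and 20.7% went each way in the small subunit. Over all genes tested, 18.4% rose and 35.6% fell. The block changed the small subunit count of rises from 6 to 2 and the large subunit count from 11 to 12. With median-of-ratios scaling the large subunit gave 18 rises and no fall, and the small subunit 11 rises and 3 falls. Of all genes, 26.5% then rose and 26% fell. The difference between the subunits was not tested, because members are not replicates of a condition. It changed sign, from 0.06 to -0.07 in medians, when genes averaging under 5 FPKM were left out.

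**Figure D2:**
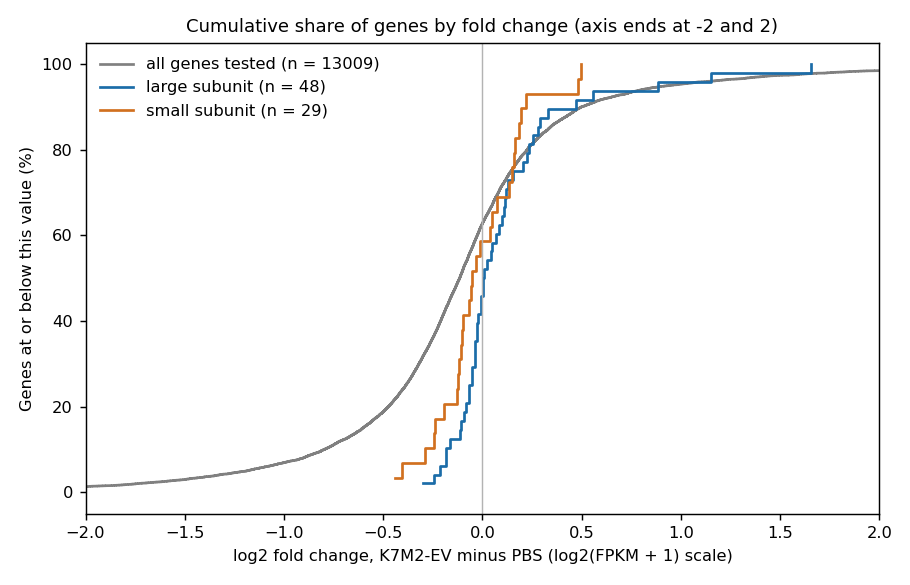
Cumulative share of genes (y axis, percent) by log2 fold change (x axis, log2(FPKM + 1) scale) for all 13009 genes tested, 48 large subunit and 29 small subunit symbols. Both subunit curves are steeper than that of all genes, and the large subunit curve reaches farther right (1.65) than the small subunit curve (0.49). Values beyond -2 and 2 are not drawn.

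A few symbols mislead about position. Mrps30 and Mrps18a sit in the large subunit despite their names, and Mrps36 is a subunit of a metabolic enzyme complex rather than of the ribosome. By position, 50 large subunit genes tested gave 11 rises and 4 falls, and 26 small subunit genes gave 6 rises and 5 falls. Split by ancestry as well, the 19 mitochondria-specific genes tested of the large subunit gave 6 rises and 3 falls. The 31 large subunit genes with a bacterial counterpart gave 5 rises and 1 fall. In the small subunit, 16 genes with a bacterial counterpart gave 5 rises and 1 fall, and 10 mitochondria-specific genes gave 1 rise and 4 falls. This split counts Mrps18a and Mrps18c as having a bacterial counterpart and Mrps18b as mitochondria-specific. The 1 rise is Mrps18b, which is related to the same bacterial family. Counted by that relation, it would leave the mitochondria-specific group of the small subunit with no rise. With the block, the first of these small subunit counts became 1 rise and 1 fall. Over all genes tested, 18.4% were called higher and 35.6% lower. The 40% falling among small subunit mitochondria-specific genes and the 16.1% rising among large subunit genes with a bacterial counterpart lie near these shares. None of these splits was tested.

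The summed level of the 49 large subunit genes was 360 ± 18.7 FPKM in the PBS libraries and 403 ± 2.84 FPKM in the vesicle libraries (SD, n = 3 per group), a rise of 12%. The lowest vesicle library (400 FPKM) lay above the highest PBS library (374 FPKM). The 29 small subunit genes summed to 156 ± 6.48 and 159 ± 5.18 FPKM, a change of 2.05%, and their groups overlapped. These sums are of FPKM without further scaling. Median-of-ratios scaling divides PBS replicates 1 to 3 by 1.0387, 1.079 and 1.051. It divides vesicle replicates 1 to 3 by 0.9537, 0.9608 and 0.9456. That raises the vesicle sums relative to the PBS sums, so these percentages and the small subunit overlap depend on the scaling. Within a library, scaling leaves the ratio of these sums unchanged. The ratio of the large to the small sum was 2.26, 2.3 and 2.34 in PBS replicates 1 to 3 and 2.59, 2.45 and 2.55 in vesicle replicates 1 to 3. Every vesicle library was thus above every PBS library. The separation rested on Mrpl52 and Mrpl45: without them the ratios were 2.17, 2.2 and 2.26 with PBS and 2.32, 2.2 and 2.27 with vesicles, which overlap. The large subunit sum then changed by 4.47%. That calculation was chosen after the values had been seen. Medians went the other way from the ratio of sums. The large minus small difference of median log2(FPKM + 1) was 0.475, 0.633 and 0.437 in PBS replicates 1 to 3. In vesicle replicates 1 to 3 it was 0.354, 0.5 and 0.35, lower for each replicate number, although the groups overlapped.

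**Figure D3:**
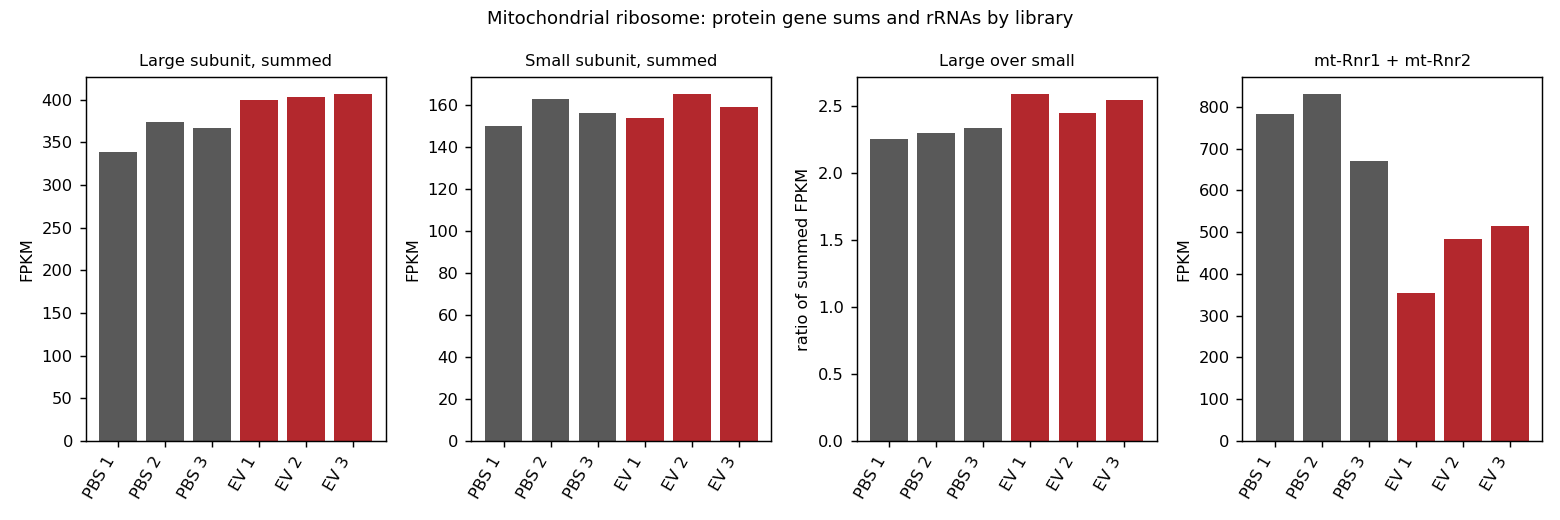
Bars give, for each library, the summed FPKM of the large and small subunit genes, the ratio of these sums, and the summed FPKM of the mitochondrial rRNAs mt-Rnr1 and mt-Rnr2, with PBS in grey and K7M2-EV in red. Sums are of FPKM without further scaling. The large subunit sum and the ratio are higher in every vesicle library, the small subunit sums overlap, and the rRNA sums are lower in every vesicle library.

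Among the large subunit genes, Mrpl52 rose most. It encodes a mitochondria-specific protein and lies on GRCm38 at chr14:54426909-54429756, plus strand. Its level was 7.23, 9.1 and 6.71 FPKM in the PBS libraries and 25.7, 25.5 and 27.2 FPKM in the vesicle libraries. All vesicle libraries stood far above all PBS libraries, with a 3.4-fold ratio of means. The log2 fold change was 1.65 (SE 0.10, limma adjusted p = 4.42e-05). The gene Mmp14, which encodes a membrane-bound matrix metalloproteinase, begins 1855 bp downstream on the same strand. Mmp14 went from 3.52 ± 1.56 to 66.5 ± 5.17 FPKM (log2 fold change 3.95). The annotated exons of the neighbours share no base, and reads of transcripts running from one into the other were not tested.

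Mrpl45 encodes a mitochondria-specific protein at the exit tunnel that helps hold the ribosome at the inner membrane. It lies at chr11:97315716-97329920, plus strand, and shares no exon base with another gene. Its level was 6.87, 7.03 and 6.29 FPKM in the PBS libraries and 16.1, 15.1 and 17.3 FPKM in the vesicle libraries. The groups were far apart, at a 2.4-fold ratio and a log2 fold change of 1.15 (SE 0.07, limma adjusted p = 3.39e-05). Mrpl57, another mitochondria-specific large subunit gene (chr14:57826234-57829296, plus strand), was at 4.77, 5.63 and 5.32 FPKM in the PBS libraries and 11, 10.1 and 10.4 FPKM in the vesicle libraries. Here too the groups did not overlap, and the log2 fold change was 0.88 (SE 0.07, limma adjusted p = 0.000101).

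Windows of sequence around the RefSeq transcript start, 250 bases before to 50 after, are shown for the 3 members with the largest rises and the 3 with the largest falls. They serve to set the start regions of genes that moved in opposite directions side by side. They are given 5′ to 3′ on the gene's strand, from RefSeq on GRCm38.p6, and all 6 genes lie on the plus strand. Capitals mark a match to a searched motif on either strand. The windows are chr14:54426659-54426958 for Mrpl52, chr11:97315466-97315765 for Mrpl45, chr14:57825989-57826288 for Mrpl57, chr16:92058086-92058385 for Mrps6, chr2:130563507-130563806 for Mrps26 and chr3:94443086-94443385 for Mrpl9.
Mrpl52: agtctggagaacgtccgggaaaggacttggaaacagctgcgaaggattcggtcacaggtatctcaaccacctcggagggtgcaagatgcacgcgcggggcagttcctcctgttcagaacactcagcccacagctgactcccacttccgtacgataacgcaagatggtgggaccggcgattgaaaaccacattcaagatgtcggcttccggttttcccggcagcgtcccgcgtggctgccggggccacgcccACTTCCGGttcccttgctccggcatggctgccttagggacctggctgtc
Mrpl45: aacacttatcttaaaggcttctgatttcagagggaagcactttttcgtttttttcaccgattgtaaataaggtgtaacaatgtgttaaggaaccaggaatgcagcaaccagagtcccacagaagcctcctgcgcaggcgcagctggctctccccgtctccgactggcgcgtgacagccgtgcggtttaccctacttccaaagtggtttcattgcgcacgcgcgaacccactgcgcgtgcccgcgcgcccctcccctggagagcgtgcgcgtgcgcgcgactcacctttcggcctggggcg
Mrpl57: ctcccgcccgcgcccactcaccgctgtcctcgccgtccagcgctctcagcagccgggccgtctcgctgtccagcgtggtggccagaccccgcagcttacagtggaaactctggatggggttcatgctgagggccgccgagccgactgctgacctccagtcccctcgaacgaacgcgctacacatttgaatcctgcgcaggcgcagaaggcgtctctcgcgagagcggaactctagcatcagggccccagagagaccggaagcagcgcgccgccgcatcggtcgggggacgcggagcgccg
Mrps6: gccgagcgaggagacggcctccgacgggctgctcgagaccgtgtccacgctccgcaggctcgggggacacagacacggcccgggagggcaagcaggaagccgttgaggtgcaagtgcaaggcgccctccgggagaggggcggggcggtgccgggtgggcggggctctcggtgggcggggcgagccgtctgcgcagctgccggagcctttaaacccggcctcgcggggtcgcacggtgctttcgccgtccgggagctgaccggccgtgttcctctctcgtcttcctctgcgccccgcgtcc
Mrps26: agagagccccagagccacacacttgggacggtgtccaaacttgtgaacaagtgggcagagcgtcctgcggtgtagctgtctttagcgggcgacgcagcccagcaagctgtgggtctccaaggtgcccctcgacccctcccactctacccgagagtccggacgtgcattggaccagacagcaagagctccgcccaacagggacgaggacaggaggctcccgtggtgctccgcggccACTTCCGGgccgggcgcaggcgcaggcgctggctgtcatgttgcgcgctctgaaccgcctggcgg
Mrpl9: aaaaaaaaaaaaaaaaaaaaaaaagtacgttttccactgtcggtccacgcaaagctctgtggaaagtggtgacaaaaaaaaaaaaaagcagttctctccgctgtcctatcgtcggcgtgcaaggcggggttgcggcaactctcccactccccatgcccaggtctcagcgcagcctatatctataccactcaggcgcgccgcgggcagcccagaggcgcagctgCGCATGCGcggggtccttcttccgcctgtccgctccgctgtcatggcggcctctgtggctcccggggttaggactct

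Windows were found for 69 of the 78 members. The ETS-type motif CCGGAAGT, read by GABP among other factors, was in 17.4% of these members, and in 10.3% of 8054 tested genes with a window. It marks the capitals in Mrpl52, which rose, and in Mrps26, which fell. The core of the nuclear respiratory factor 1 motif, CGCATGCG, was in 10.1% of members and 4.82% of tested genes, and marks the capitals in Mrpl9. The YY1 core AAGATGGCG was in 11.6% and 4.02%. These cores were chosen after longer forms had been counted. The CRE motif TGACGTCA was in 2.9% and 3.69%, and the E-box CACGTG was in 7.25% and 12.3%. Both strands were searched, and none of these motifs contains another. Of the members called higher, 13.3% of 15 held the ETS-type motif, and of those called lower, 25% of 8 did. A match describes letters only, and a missing match says only that these letters are not in this window.

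Of the remaining large rises in the large subunit, Mrpl20 belongs to a family that binds rRNA early in bacterial assembly. It was at 6.7, 7.39 and 6.68 FPKM in the PBS libraries and 11.5, 11.1 and 9.45 FPKM in the vesicle libraries. The groups did not overlap, and the log2 fold change was 0.56 (limma adjusted p = 0.00169). Mrpl53, a low-level mitochondria-specific gene, was at 1.59, 1.6 and 1.41 FPKM in the PBS libraries and 2.75, 2.47 and 2.31 FPKM in the vesicle libraries. All its vesicle values were higher, at a log2 fold change of 0.47 (limma adjusted p = 0.0022). However, 695 bp or 88% of its exons are shared with the same-strand gene Gm42688 (log2 fold change 0.22), so that the division of reads between them is uncertain. Mrpl54, also mitochondria-specific, was at 15.6, 18.9 and 17.6 FPKM in the PBS libraries and 21.2, 23 and 22.2 FPKM in the vesicle libraries, without overlap. Its log2 fold change was 0.33 (limma adjusted p = 0.0111).

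In the small subunit, Mrps28 rose most. It was at 10.6, 13.9 and 11.2 FPKM in the PBS libraries and 16.8, 17.6 and 16.8 FPKM in the vesicle libraries. The vesicle libraries were all higher, at a log2 fold change of 0.49 (limma adjusted p = 0.00612). Mrps18b was at 3.4, 4.18 and 4.39 FPKM in the PBS libraries and 5.43, 5.75 and 6.73 FPKM in the vesicle libraries, again without overlap. Its log2 fold change was 0.48 (limma adjusted p = 0.00853). A processed pseudogene, Gm13552, matches the Mrps18b transcript at 99.8% identity and went from 3.34 to 4.96 FPKM, so the share of reads belonging to each is uncertain. The paralogues Mrps18a, Mrps18b and Mrps18c are related to the same bacterial protein but occupy different places in the ribosome. Of these, the split by ancestry counts only Mrps18b as mitochondria-specific. Mrps18c was at 7.39, 6.69 and 6.67 FPKM in the PBS libraries and 7.69, 8.04 and 8.2 FPKM in the vesicle libraries, a small rise without overlap (log2 fold change 0.18, limma adjusted p = 0.0345). Its call was lost with the block (adjusted p = 0.0661). Mrps18a was at 4.53, 4.16 and 3.95 FPKM in the PBS libraries and 5.06, 4.28 and 5.18 FPKM in the vesicle libraries, which overlap (adjusted p = 0.141). It was called only under other settings, such as median-of-ratios scaling (adjusted p = 0.0337) or without vesicle replicate 2 (adjusted p = 0.0421).

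The falls were smaller than the largest rises. Mrps6 (chr16:92058270-92112227, plus strand) fell most, from 10.7, 12.3 and 11.4 FPKM to 7.41, 9.42 and 7.85 FPKM. All vesicle libraries were below all PBS libraries, at a log2 fold change of -0.44 (limma adjusted p = 0.00816). It shares 159 bp of exon, 10.4% of its own, with the same-strand transporter gene Slc5a3, which fell as well (log2 fold change -0.86). It also shares 305 bp, or 19.9%, with the same-strand gene Gm49711, for which no value was analysed here. Mrps26 fell from 6.5, 7.59 and 7.34 FPKM to 4.92, 5.45 and 5.09 FPKM, without overlap (log2 fold change -0.40, limma adjusted p = 0.00328). Mrps25 fell from 3.55, 3.54 and 3.57 FPKM to 2.71, 2.67 and 2.82 FPKM. The libraries of each group were close together, and the log2 fold change was -0.29 (limma adjusted p = 0.00364). Of its exons, 69.8% are shared with Nr2c2 on the opposite strand, and without a known strand setting reads of these genes cannot be told apart. Mrps31 went from 3.3, 3.22 and 3.06 FPKM to 2.79, 2.23 and 2.63 FPKM, without overlap (log2 fold change -0.24, limma adjusted p = 0.036).

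Among large subunit symbols Mrpl9 fell from 9.07, 10.4 and 9.74 FPKM to 7.2, 7.93 and 8.04 FPKM, with no overlap (log2 fold change -0.30, limma adjusted p = 0.0098). Mrpl42 fell from 4.67, 5.45 and 5.01 FPKM to 4.35, 4.27 and 3.72 FPKM (log2 fold change -0.24, limma adjusted p = 0.0356). Mrpl51 fell from 6.73, 7.93 and 7.24 FPKM to 5.93, 6.01 and 6.51 FPKM (log2 fold change -0.21, limma adjusted p = 0.0402). In both, the highest vesicle library was only slightly below the lowest PBS library. A processed pseudogene, Gm6419, matches the Mrpl42 transcript at 96.3% identity and went from 2.6 to 1.93 FPKM. The share of reads belonging to Mrpl42 and to Gm6419 is therefore uncertain. Mrps30, positioned in the large subunit, fell from 3.46, 3.69 and 3.43 FPKM to 2.83, 2.97 and 2.73 FPKM (log2 fold change -0.24, limma adjusted p = 0.013). Of the 9 falls, 6 lost their call with median-of-ratios scaling: Mrpl9, Mrpl42, Mrpl51, Mrps30, Mrps31 and Mrps35.

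**Figure D4:**
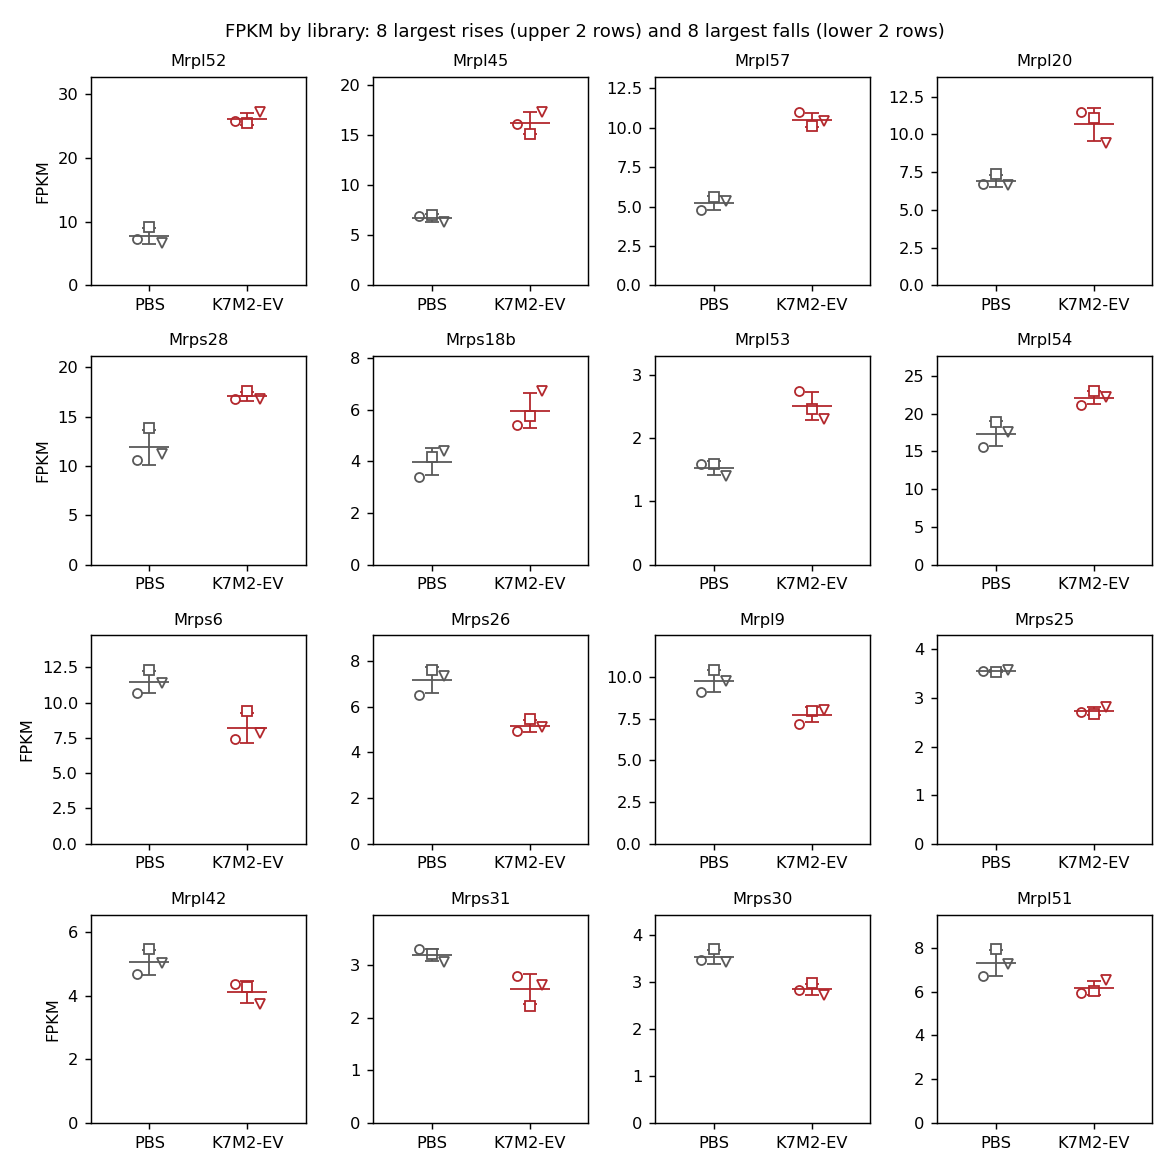
FPKM (y axes, each starting at 0) in the 3 PBS and 3 K7M2-EV libraries for the 8 largest rises and the 8 largest falls. Circles, squares and triangles are replicates 1, 2 and 3, and bars are mean ± SD (n = 3). The groups do not overlap in any of the 16 panels, and the gap is widest for Mrpl52.

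How far these calls hold depended on the libraries kept. When single libraries or both libraries of a replicate number were left out in turn, 6 rises were called each time: Mrpl52, Mrpl45, Mrpl57, Mrpl20, Mrps18b and Mrpl53. Their highest adjusted p was 0.00355, 0.00276, 0.00781, 0.0247, 0.0413 and 0.0264, in that order (limma). Without both libraries of replicate 3, Mrps28 (adjusted p = 0.0745), Mrpl54 (0.0954), Mrps6 (0.09), Mrps26 (0.0583), Mrpl9 (0.0726) and Mrps25 (0.0515) missed the threshold with 2 libraries per group. Without both libraries of replicate 2, which held the most mesenchymal RNA, 11 members were called higher and 6 lower. The share of all genes called in that fit is not given, and the part of mesenchymal RNA was not tested. Leaving out 1 library ended the call of Mrpl42, Mrpl51 and Mrps31 for several of the 6 libraries, with adjusted p up to 0.105, 0.118 and 0.092. The call of Mrps30 ended without vesicle replicate 3 (adjusted p = 0.0503). The call of Mrps18c ended without any library but PBS replicate 1, with adjusted p up to 0.107.

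The other 51 members tested changed by between -0.19 and 0.29 and were not called. Their upper end was Mrpl12, whose product is part of the factor-binding stalk, at 14.7, 18.5 and 19.7 FPKM in the PBS libraries and 21.2, 21.4 and 22.3 FPKM in the vesicle libraries. Its groups did not overlap, but PBS replicate 1 was low and the adjusted p was 0.0566 (0.037 with the block). Mrps21 showed 1 library apart: it was at 8.69, 8.69 and 8.7 FPKM in the PBS libraries and 7.64, 12.8 and 7.41 FPKM in the vesicle libraries. Without vesicle replicate 2 it was called, its remaining vesicle values lying below every PBS value. Both genes were singled out after their values had been seen. A value that was not called does not show that the gene stayed the same.

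Levels ranged widely among members, and comparisons between genes rest on the annotated exon length used for FPKM (607 to 8631 bp). By mean FPKM over all 6 libraries the highest members were Mrpl34 (25.1), Mrpl43 (20.7) and Mrpl54 (19.7). Mrpl34 was at 22.8, 26.2 and 28.3 FPKM in the PBS libraries and 24.8, 25.5 and 22.9 FPKM in the vesicle libraries. Mrpl43 was at 20.4, 21.4 and 21.3 FPKM in the PBS libraries and 19.8, 19.7 and 21.9 FPKM in the vesicle libraries. Neither was called, and the groups overlapped in both. Of the exons of Mrpl43, 33.4% are shared with Twnk on the opposite strand. The order changed with vesicles: Mrpl52 had a mean of 26.1 ± 0.952 FPKM there, next to 24.4 ± 1.33 FPKM for Mrpl34, a gap close to the spread between libraries.

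At the lower end were Mrps17 (1.08 FPKM over all 6 libraries), Mrpl48 (1.05) and Mrpl58 (0.98). Mrps17 was at 1.12, 1.29 and 1.08 FPKM in the PBS libraries and 0.9, 1.07 and 1.02 FPKM in the vesicle libraries (adjusted p = 0.216). Mrpl48 was at 0.869, 0.916 and 1.43 FPKM in the PBS libraries and 0.758, 1.05 and 1.24 FPKM in the vesicle libraries, which overlap. Mrpl58, which frees stalled ribosomes by releasing the unfinished protein, was at 0.846, 0.987 and 1.09 FPKM and 0.971, 0.999 and 0.987 FPKM. It was the only member below the filter of 1 FPKM in at least 3 libraries. Shared sequence makes some of the members' values uncertain. For 26 members a pseudogene elsewhere matched at 90% identity or more over at least 200 bp. For Mrpl23, Mrpl48, Mrps21, Mrps33 and Mrps36 such a copy was listed at or above the member's own level. Mrpl23 was at 1.94 FPKM with PBS beside 21.5 FPKM for Mrpl23-ps1, a copy of 100% identity, and Mrpl48 was at 1.07 FPKM beside 7.92 FPKM for Mrpl48-ps.

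Several mitochondrial ribosomal protein genes start next to another gene on the opposite strand. Such a protein-coding partner with its start within 1000 bp was found for 33 members, and both genes were tested in 27 pairs. Direction was shared in 16 of the 27, and in 5 both genes were called. In 4 of those the member rose while the partner fell. Of the 27 partners 11 were called lower, where 35.6% of all genes were. Among the members tested 22.1% were called higher, and whether the pair counts exceed what such shares give was not tested. Mrpl57 starts 49 bp from Ska3, a kinetochore gene, which went from 2.69 ± 0.629 to 0.57 ± 0.244 FPKM. Mrps18b starts 45 bp from Ppp1r10, a phosphatase regulator, which went from 6.81 ± 0.25 to 5.79 ± 0.417 FPKM. The others were Mrpl21 with Ighmbp2 (log2 fold changes 0.25 and -0.26) and Mrpl41 with Pnpla7 (0.28 and -1.28). The call of Mrpl41 was lost with the block (limma adjusted p = 0.0686). In the 1 remaining pair, Mrpl51 and the chromosome condensation gene Ncapd2 both fell (-0.21 and -1.76). The pair of Mrpl46 and Mrps11 joins 2 members and counts from both sides. Pairs named here were chosen after their values had been seen.

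Mitoribosomal proteins with other symbols gave 1 call. Chchd1, a small subunit protein, rose from 7.59, 8.34 and 8.5 FPKM to 11.5, 10.4 and 10.8 FPKM, with all vesicle libraries higher (log2 fold change 0.38, limma adjusted p = 0.00254). Dap3 and Ptcd3, both of the small subunit, were at 2.5 ± 0.27 and 2.84 ± 0.25 FPKM with PBS, against 2.7 ± 0.252 and 2.53 ± 0.0221 FPKM in the vesicle libraries. Aurkaip1 went from 7.74 ± 1.08 to 8.62 ± 0.993 FPKM and Gadd45gip1 from 4.76 ± 0.379 to 5.08 ± 0.107 FPKM. None of these last 4 was called.

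The RNA partners of the proteins fell, the other way from Mrpl52 and Mrpl45. The 77 members tested had a median near 0 (-0.005), with 17 rises and 9 falls. The small subunit rRNA gene mt-Rnr1 fell from 344, 378 and 301 FPKM to 157, 225 and 238 FPKM (log2 fold change -0.74, limma adjusted p = 0.0115). The large subunit rRNA gene mt-Rnr2 fell from 440, 452 and 370 FPKM to 197, 258 and 277 FPKM (log2 fold change -0.79, limma adjusted p = 0.00416). In both, every vesicle library was below every PBS library. rRNA values depend on whether polyadenylated or rRNA-depleted RNA was sequenced, which the sources used here do not give. Of the 13 proteins encoded by mitochondrial DNA, which these ribosomes make, 6 fell and none rose, set against 35.6% and 18.4% of all genes, with a median of -0.20. The largest falls were mt-Cytb (-0.39), mt-Nd4l (-0.38) and mt-Nd4 (-0.36). With the block 9 fell, set against 36.8% of all genes. With median-of-ratios scaling 4 fell and 1 rose, set against 26% and 26.5% of all genes.

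Among the genes that build the ribosome, 2 of 23 assembly and rRNA modification genes tested rose and 6 fell (4 with the block). For this and the lists that follow, the shares over all genes were 18.4% higher and 35.6% lower, and no list is shown to differ from them. The rRNA methyltransferase gene Mrm2 fell from 3.87 ± 0.217 to 2.63 ± 0.188 FPKM, Mettl17 from 1.39 ± 0.0633 to 0.854 ± 0.0464 FPKM and the small subunit maturation factor gene Rbfa from 25.9 ± 1.64 to 21 ± 0.941 FPKM. Nsun4 (log2 fold change 0.27) and Rcc1l (0.26) rose. With median-of-ratios scaling this list gave 5 rises and 2 falls, so its direction depends on the scaling. Of 15 translation factors, none rose and 3 fell: the elongation factor gene Guf1 (-0.49), the membrane insertase gene Oxa1l (-0.44) and the formyltransferase gene Mtfmt (-0.33). Median-of-ratios scaling gave 2 rises and 2 falls there. Of 14 mitochondrial aminoacyl-tRNA synthetases, Ears2 rose (0.35) and 4 fell, among them Iars2 (-0.58), Mars2 (-0.35) and Hars2 (-0.27). That scaling gave 3 of each, and quantile normalization gave 6 rises and 1 fall.

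Upstream of the rRNAs, 3 of 9 genes of mitochondrial transcription and DNA replication fell and none rose. They were Tfam, which packages mitochondrial DNA and starts its transcription (-0.33), the helicase gene Twnk (-0.34) and the exonuclease gene Mgme1 (-0.36). Median-of-ratios scaling left 2 falls, and quantile normalization gave 1 rise and no fall. Of 9 nuclear regulators of mitochondrial genes tested, 2 rose and 2 fell. Esrra, an orphan nuclear receptor gene, rose from 9.25 ± 0.509 to 13.8 ± 1.21 FPKM and the coactivator gene Pprc1 from 3.04 ± 0.35 to 4.53 ± 0.245 FPKM. Gabpa, the DNA-binding subunit of GABP, fell from 8.2 ± 0.376 to 6.45 ± 0.409 FPKM and the stress-response factor gene Nfe2l2 from 69.1 ± 6 to 49.4 ± 1.46 FPKM. The coactivator gene Ppargc1a was near 0 in every library. The import machinery, which brings ribosomal proteins into mitochondria, gave 8 rises and 6 falls of 24 tested. Timm17a (0.38), Timm23 (0.37) and the chaperone gene Hspa9 (0.33) rose most, and Timm21 (-0.30), Grpel1 (-0.25) and Tomm7 (-0.24) fell most. Median-of-ratios scaling gave 10 rises and 1 fall there. Leaving out 1 library ended the calls of Twnk (adjusted p up to 0.0901), Mtfmt (0.0604), Rcc1l (0.0909), Hspa9 (0.066) and Tomm7 (0.0623).

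**Figure D5:**
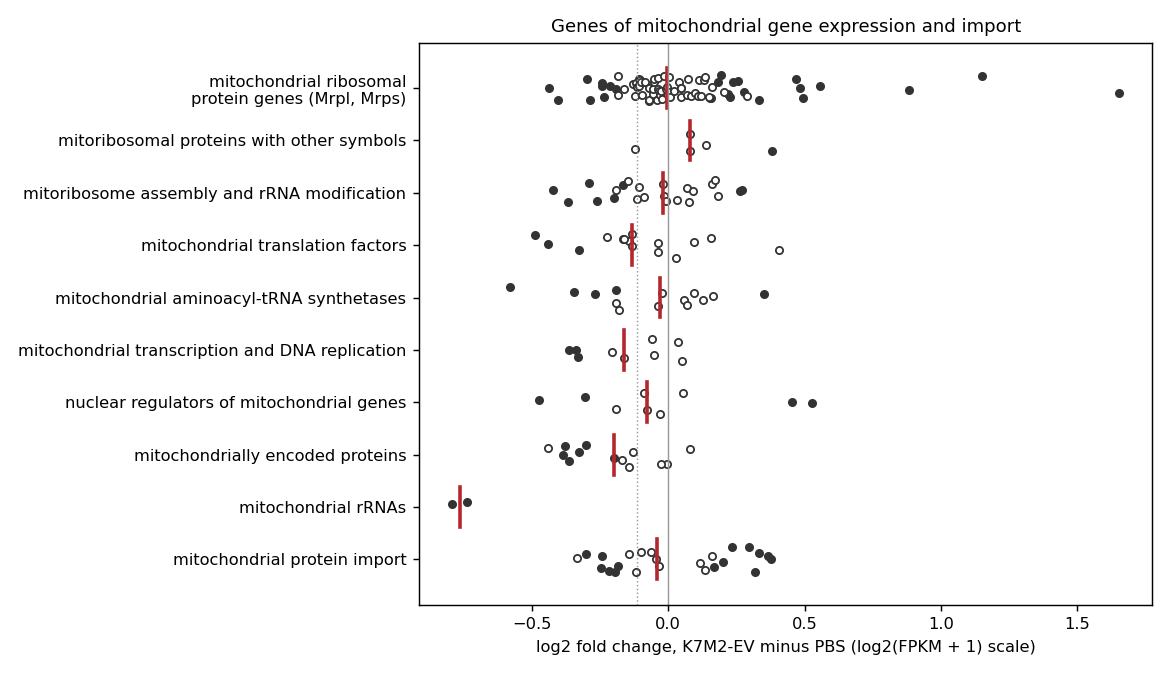
Log2 fold change (x axis, K7M2-EV minus PBS, log2(FPKM + 1) scale) of each tested gene in the mitochondrial ribosomal protein set and in 9 further lists. Filled points passed adjusted p under 0.05, red bars are medians, the solid line is 0, the dotted line is the median of all genes (-0.115), and vertical scatter within a list has no meaning. The rRNAs lie lowest, and the farthest points to the right are Mrpl52 and Mrpl45.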

How the data were processed

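RNA was measured in 3 PBS and 3 K7M2-EV libraries, grouped and numbered by their titles. Per library, the authors deposited 1 table of FPKM values. Named without roles in the submitters' processing notes are StringTie 1.3.4b, HISAT2 2.1.0, CASAVA 1.8, edgeR and GRCm38. Whether counting used strand is not given in those notes or the labels, so overlapping genes on opposite strands cannot be separated.

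From the 26883 rows, 1 without a value and 47 repeats of a symbol (all but the row of highest mean) were dropped. The filter kept 13009 genes that reached 1 FPKM in 3 or more libraries. Their log2(FPKM + 1) values were compared by limma 3.58.1 (R 4.3.3, statmod 1.5.0, trend and robust settings), two-sided, with Benjamini-Hochberg adjustment over all of them. P-values measure only the spread between these libraries. The steps were tested on simulated data. FPKM times exon length was whole within 0.1 reads for 72.5% to 73.4% of values worth at most 20 reads (20% by chance), so counts were not recovered, and implied reads are approximate. Positions and lengths came from GENCODE M21 on GRCm38, pseudogene matches from blastn 2.17.0, and promoter windows from RefSeq on GRCm38.p6. Tables were prepared in Python 3.11.15 (pandas 2.3.3, numpy 2.4.6) and plots in matplotlib 3.10.9.

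Deviations from the group mean correlated across genes between libraries of the same number (0.317, 0.294 and 0.209). The numbers may therefore pair libraries, although no label says so. The main fit has no block. With the block, 6 member calls were lost (Mrpl41, Mrps10, Mrps14, Mrps16, Mrps18c and Mrps35) and 2 gained (Mrpl12 and Mrpl30).

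Members and lists were chosen with earlier results of these data known. Named were the 8 largest rises and falls among called members, the 3 highest and 3 lowest levels, members below the filter, the Mrps18 paralogues with Mrps30, mitoribosomal proteins with other symbols, and up to 3 rises and 3 falls of each other list. Alternatives were other pseudocounts, filters and scalings, a voom fit on approximate reads, the block, and leaving libraries out.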

Additional observations from a re-analysis of the deposited data

How the results depend on the processing

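Over all members, the main counts of 17 higher and 9 lower stayed within 1.5 times under pseudocounts of 0.1 and 0.5, without limma's trend, with voom, with summed repeats and with the replicate block (14 and 8). Without a filter, 10 members were higher, with 1 large subunit fall and 2 small subunit rises. With a mean of at least 5 FPKM, 4 were lower (2 of the small subunit), the small subunit median was 0.073 and the large minus small difference -0.07. Median-of-ratios scaling gave 29 higher and 3 lower (large 18 and 0, small 11 and 3), with medians of 0.131 and 0.065. Quantile normalization gave 26 and 3 (large 18 and 1, small lower 2), with medians of 0.11 and 0.10 and a difference of 0.007. With voom the small subunit had 3 rises and a median of -0.071. The replicate block left it 2 rises. Leaving out libraries gave 6 to 14 members higher and 0 to 9 lower. The large subunit had 5 to 10 rises and 0 to 5 falls, and the small subunit 1 to 4 rises and 0 to 5 falls. Medians ranged from -0.014 to 0.044 (large) and from -0.076 to -0.012 (small), and their difference from 0.02 to 0.10. Some values that were not called changed sign. With median-of-ratios scaling Mrpl34 was 0.072, Mrpl43 0.103 and Mrpl48 0.038. With quantile normalization Mrpl48 was 0.21, Mrps17 0.12 and Ptcd3 0.051. With libraries left out, Mrpl34 ranged from -0.165 to 0.041, Mrpl48 from -0.115 to 0.085 and Dap3 from -0.001 to 0.141. Without Mrpl52 and Mrpl45, chosen after seeing the data, the large subunit sum changed by 4.47%. For other filters, voom and libraries left out, shares of all genes are not given, so those counts cannot be set against other genes. Apart from fewer libraries or genes tested, the cause of these shifts was not tested. Depth limits Mrpl53 most, with counting error up to 19.2%.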
